A study of Mus musculus with 5 samples.

Results

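The respiratory chain genes were the protein-coding genes whose symbols name subunits or dedicated assembly factors of the 4 respiratory complexes and of ATP synthase, encoded either in the nucleus or in mitochondrial DNA. Of 55397 annotated genes, 124 had a matching symbol, and 103 of these were protein coding with a mean of at least 50 normalised counts over the libraries. These 103 members comprised 93 nuclear and 10 mitochondrially encoded genes. Of the 21 genes left out, 13 were not annotated as protein coding and 8 fell under the minimum, among them mt-Atp8, mt-Nd3 and mt-Nd4l.

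The 5 RNA-seq libraries came from liver tumours cut out of C57BL/6N mice, all female, in which hepatocytes had been transformed at 8 weeks of age by hydrodynamic tail vein injection, a rapid injection that drives plasmid DNA into the liver. All mice received Sleeping Beauty transposase behind a CMV promoter, with transposons for AKT (EF1a promoter) and for NICD, the active intracellular part of the Notch receptor, linked to rtTA, the doxycycline-dependent activator. This Akt/Notch combination models cholangiocarcinoma, a bile duct cancer. The 3 Prox1 OE tumours also carried FLAG-tagged mouse Prox1 with GFP behind a doxycycline-dependent (Tre) promoter, while the 2 Control tumours carried the same plasmid with GFP alone. Doxycycline food (6.25%) started on day 21 in both groups, so that induction came late, in tumours already formed. The labels do not give the day of collection, so tumour age and time on doxycycline may differ between libraries. Nothing in the labels ties libraries to separate animals, so p-values measure the spread between these libraries. Because whole tumour tissue was used, fewer cells of a type and less RNA per cell cannot be told apart.

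Libraries held 48740863 to 56629477 reads. Normalised counts were reads divided by a size factor, and a gene was called changed at a limma adjusted p under 0.05. Prox1 itself had 4153 and 4664 normalised counts in Control and 48090, 11113 and 8231 in Prox1 OE replicates 1, 2 and 3, above both Control values in every case, with a log2 fold change of 1.90 (SE 0.66, limma adjusted p = 0.0607). The hepatocyte markers named in the cell type list were present in all libraries, at a summed 668015 to 1106330 in Control and 2333450 to 3702290 in Prox1 OE.

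The respiratory chain passes electrons from NADH and succinate to oxygen and stores the energy as a proton gradient across the inner mitochondrial membrane. Complex I oxidises NADH, complex II oxidises succinate, complex III passes electrons from ubiquinol to cytochrome c, and complex IV (cytochrome c oxidase) reduces oxygen, after which ATP synthase uses the gradient to make ATP. Mitochondrial DNA encodes a small hydrophobic core of every complex except complex II, and nuclear genes encode all other subunits, so that the complexes draw on both genomes. Hepatocytes are rich in mitochondria.

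Nearly all nuclear-encoded subunits were higher in the Prox1 OE tumours, by a median of 0.69 on the log2 scale over the 93 nuclear members. Of these, 73 rose, 1 fell (Ndufa4l2) and 19 were not called. Among all 17105 genes tested, 17.1% were called higher, 16.2% lower and 33.3% in either direction, with a median log2 fold change of -0.02. For 86 nuclear members all Prox1 OE values exceeded both Control values and for 2 all were below them, against 30.9% and 32.4% of all genes tested. The median of the 10 mitochondrially encoded members was 0.80, with 5 called higher and 5 not called. With all libraries 79 members were called, with 3 left without Control replicate 1 and 13 without Control replicate 2, where 8.84% and 14.6% of all genes were called. Such fits hold a single Control library, assumed to vary like the Prox1 OE libraries, and calls were fewer over all genes too. In them 56 and 69 nuclear members had an unadjusted p under 0.05, and the nuclear medians were 0.65 and 0.73. Without Prox1 OE replicates 1, 2 or 3 the members called were 91, 31 and 47, and all genes called 43.8%, 22.6% and 24.1%. The nuclear median stayed between 0.56 and 0.83 in these settings. Scaling by total reads placed all genes lower by a median of -0.45 on the log2 scale, with 17.7% of calls higher in place of 51.4%, and left 11 nuclear members called higher and 3 lower (8.59% and 40% of all genes), with 79 of 93 fold changes above 0 and a nuclear median of 0.26. Measured from that shifted median, nuclear members stood at 0.71 under both scalings, which follows by construction because a scaling moves all genes of a library alike. After the correction for transcript length given below, they stood at 0.35 from the median of all genes, with 31 nuclear members called higher.

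**Figure D1:**
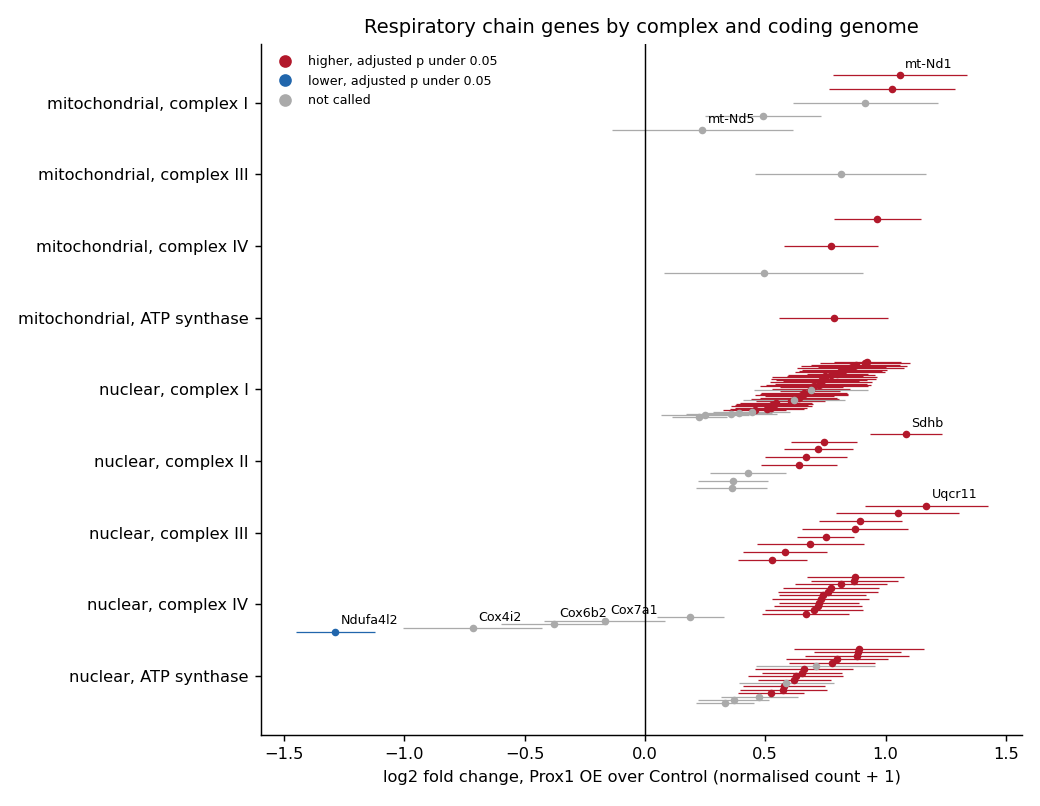
Log2 fold change of Prox1 OE over Control (x axis, normalised count + 1) for the 103 members, grouped by coding genome and complex on the y axis. Points are genes and bars their standard errors. Red points were called higher, the blue point lower and grey points were not called. Nuclear subunits cluster near the median of 0.69, and the few values below 0 are alternative forms of complex IV subunits, led by Ndufa4l2 at -1.29.

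Complex I was measured through 44 nuclear members, of which 37 rose. All 7 core subunits of its peripheral arm, the part that binds NADH and carries the iron-sulphur clusters, rose by 0.53 to 0.80. Ndufv1, which holds the NADH-binding site, had 5357 and 5853 normalised counts in Control and 8916, 9601 and 10788 in Prox1 OE. The groups did not overlap (log2 fold change 0.80, SE 0.13, limma adjusted p = 0.00466). Ndufs1, the largest of the iron-sulphur subunits, rose from 4364 and 4146 to 7150, 5227 and 6375, with replicate 1 the highest (0.54, SE 0.15, limma adjusted p = 0.0291). Ndufv2 rose least, by 0.53, and Ndufs3, which lies near the quinone-binding part of the arm, rose by 0.75. Whether counting used strand was not given, so values are less certain for members that share exonic positions with a gene on the opposite strand. Among those named here, these are Ndufs1, Ndufs3, Ndufa2, Cox4i1, Ndufa4l2, Atp5a1, Atp5d, mt-Nd5 and mt-Nd6.

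Accessory subunits surround that core and stabilise it, and 26 of the 29 measured rose, by a median of 0.69. The largest change among them was that of Ndufa13, from 7086 and 7689 normalised counts to 10941, 14673 and 16792 (0.91, SE 0.19, limma adjusted p = 0.0106). Ndufa12, Ndufa2 and Ndufb7 were not called, at 0.44, 0.69 and 0.62. All 29 were higher in each Prox1 OE library than in either Control library.

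Assembly factors build the complexes but are absent from the finished enzymes. They changed less than the subunits, with 5 of 12 called higher over complexes I and II and a median of 0.41, beside 68 of 75 and a median of 0.72 for nuclear structural subunits outside the alternative forms. This difference between the classes was not tested, and the classes were not matched for transcript length. Nuclear members of up to 1000 bp had a median of 0.70 and those of 2000 to 5000 bp 0.57. The largest change among them was in Ndufaf1, an early complex I assembly factor on chromosome 2 (119655446 to 119662827, minus strand), with 746 and 818 normalised counts in Control and 1394, 1396 and 1678 in Prox1 OE. All Prox1 OE values exceeded the Control values, and its log2 fold change of 0.92 (SE 0.14, limma adjusted p = 0.00386) was called in 18 of 18 alternative settings. Ndufaf6, Ndufaf8 and Ndufaf5 also rose (0.77, 0.72 and 0.51). Ndufaf4, in contrast, had 1201 and 1230 against 1184, 1407 and 1809, so that its groups overlapped.

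Complex II is the only complex with no mitochondrially encoded subunit. All 4 of its subunits rose, and Sdhb, the iron-sulphur subunit (chromosome 4, 140961203 to 140979193, plus strand), changed most. Sdhb had 6400 and 6402 normalised counts in Control and 12073, 12910 and 16050 in Prox1 OE. Even the lowest Prox1 OE value lay far above the 2 nearly equal Control values (1.08, SE 0.15, limma adjusted p = 0.00321), and the gene was called in 18 of 18 alternative settings. Sdha, the flavoprotein that oxidises succinate, rose by 0.64, and the membrane anchors Sdhc and Sdhd rose by 0.74 and 0.72. Of the 4 complex II assembly factors, Sdhaf4 alone was called (0.67).

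All 8 nuclear members of complex III rose, with a median of 0.81. Uqcr11, a small accessory subunit (chromosome 10, 80402997 to 80406830, minus strand), had the largest rise of all members. It had 5369 and 6175 normalised counts in Control and 8966, 14200 and 17072 in Prox1 OE, with replicate 1 well below the other Prox1 OE libraries and above both Control libraries (1.17, SE 0.26, limma adjusted p = 0.0132). Uqcrq, another small subunit, followed the same order, at 8138 and 9396 against 12660, 19459 and 24089 (1.05, SE 0.26, limma adjusted p = 0.0193). Uqcrfs1, the Rieske iron-sulphur protein that takes electrons from ubiquinol, rose by 0.90 and Uqcr10 by 0.87. The smallest change was that of Uqcrc2 at 0.53.

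Complex IV split by subunit form. All 11 nuclear subunits in their ubiquitous form rose within a narrow range of 0.67 to 0.87, among them Cox6a1 (0.87), Cox4i1 (0.70), Cox6b1 (0.72), Cox7a2 (0.73), Cox8a (0.72) and Ndufa4 (0.87). None of the 4 alternative forms rose, and their median was -0.55. Ndufa4 was first assigned to complex I and is now placed with complex IV, and Ndufa4l2 is its hypoxia-induced counterpart. Ndufa4 had 11695 and 11932 normalised counts in Control and 17091, 21588 and 27538 in Prox1 OE. Ndufa4l2 (chromosome 10, 127514967 to 127517154, plus strand) had 551 and 613 in Control against 232, 260 and 222. The forms thus moved in opposite directions in every Prox1 OE library, and Ndufa4l2 fell by 1.29 on the log2 scale (SE 0.16, limma adjusted p = 0.0028), a call kept in 18 of 18 alternative settings. The exonic positions that Ndufa4l2 shares on the other strand belong to Shmt2.

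The other 3 alternative forms were not called in the main limma fit. Cox4i2 and Cox6b2 were called lower under total-read scaling with and without mitochondrially encoded genes, where 40% and 39.1% of all genes were called lower. Cox6b2 was called lower without Prox1 OE replicate 1 (22% of all genes), and Cox4i2 and Cox7a1 after the length correction (16%). Cox4i2, a form of subunit 4 linked to low oxygen, had 104 and 68.7 normalised counts in Control and 54.2, 49.6 and 49.8 in Prox1 OE, with the groups apart but the Control values widely spread (-0.72, SE 0.29, limma adjusted p = 0.0941). Cox6b2, known from testis, had 392 and 409 against 401, 281 and 258. Cox7a1, the heart and muscle form, had 895 and 862 against 561, 1064 and 800, and both genes overlapped between groups. Expressed against the ubiquitous partner in the same library, Ndufa4l2 counts were 4.71% and 5.14% of Ndufa4 counts in Control and 1.36%, 1.20% and 0.807% in Prox1 OE. Cox7a1 went from 9.61% and 9.28% of Cox7a2 to 4.72%, 6.67% and 4.14%. All 4 ratios were lower in every Prox1 OE library than in either Control library, although counts were not divided by transcript length and the ratios describe change only. The ubiquitous partners all rose, so an alternative form with unchanged counts would also give lower ratios. Cox6a2 and Cox8b, the muscle forms, were under the minimum, at means of 14.1 and 1.67. Cox7a2l, which helps complexes join into supercomplexes, had 7268 and 8378 against 7803, 9731 and 9268, and was not called (0.19, limma adjusted p = 0.331).

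**Figure D2:**
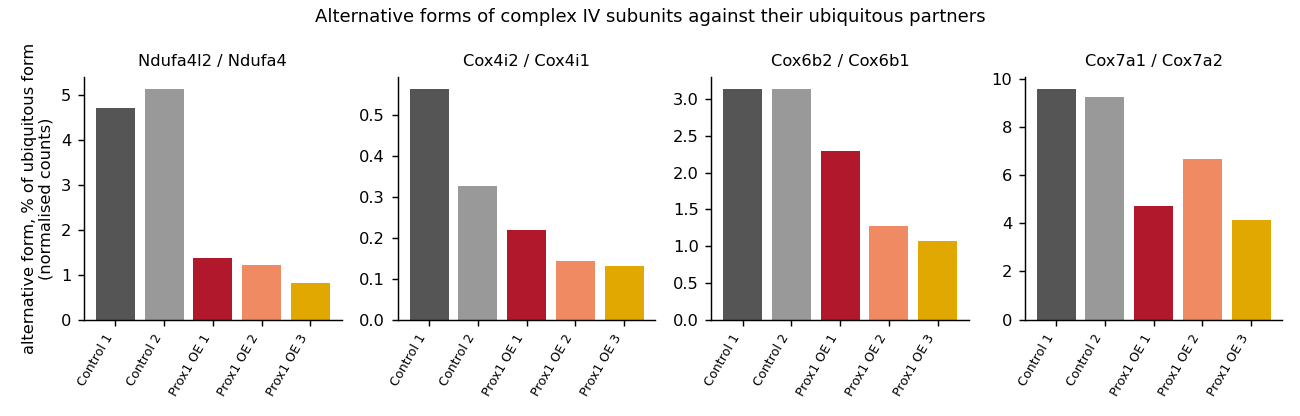
Normalised count of the alternative form as a percent of its ubiquitous partner (y axes, linear from 0) in each of the 5 libraries (x axes), 1 panel a pair and 1 bar a library. In each panel the 3 Prox1 OE bars are lower than both Control bars, from 4.71% and 5.14% to between 0.807% and 1.36% for Ndufa4l2. Each partner rose, so a lower bar alone does not show a fall of the alternative form.

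Several genes regulated by oxygen were set beside these forms. Of 8 genes induced in hypoxia, 3 fell and 5 were not called, where 16.2% of all genes were called lower. Car9, a carbonic anhydrase, had 277 and 849 normalised counts in Control and 64.4, 43.7 and 39.3 in Prox1 OE (-3.31). Egln3 (a HIF prolyl hydroxylase) and Slc2a1 (a glucose transporter) fell by 1.48 and 1.23 on the log2 scale. Those not called were Vegfa at -0.51, with all Prox1 OE values below Control, and Ldha, Bnip3, Higd1a and Pdk1 at 0.11, 0.04, 0.25 and 0.27, the last 4 with overlapping groups. Their relation to Ndufa4l2 was not tested.

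ATP synthase was measured through 17 nuclear members, of which 12 rose and 5 were not called, with a median of 0.63. In the catalytic head and central stalk, Atp5b, the catalytic beta subunit, had 55605 and 57236 normalised counts in Control and 85550, 78289 and 89028 in Prox1 OE. The groups were clearly apart (0.58, SE 0.17, limma adjusted p = 0.0367). Atp5a1, the alpha subunit, was just outside the threshold at 0.48 (limma adjusted p = 0.0553), and Atp5d rose most in the head, by 0.88. The proton-carrying c-ring is encoded by 3 genes whose mature proteins are the same. Atp5g1 rose from 6038 and 6730 to 8666, 12858 and 14497 (0.88), and Atp5g3 rose by 0.78. Atp5g2 had 4510 and 4031 against 4910, 5659 and 5571 and was not called (0.33, limma adjusted p = 0.0698). Of the 8 peripheral stalk and membrane subunits, 7 rose, led by Atp5k at 0.89.

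Promoter sequences were taken from RefSeq (build GRCm38.p6), whose table matched 76 of the 93 nuclear members, to show letters around the start sites of genes that moved together. Windows ran from 250 bases before to 50 bases after the start site. The shares below count matches anywhere in a window, including bases inside the gene that are not printed. The DNA letters searched, on both strands, are those known for NRF1 (GCGCATGC), ETS factors such as GABP (CCGGAAG), oestrogen-related receptors, ERR (AAGGTCA), and YY1 (AAGATGGC), which regulate respiratory genes in other settings. The NRF1 letters were in 15.8% of members and 3.9% of all 17492 protein-coding genes, the ETS letters in 27.6% and 12.9%, the ERR letters in 10.5% and 4.7%, and the YY1 letters in 13.2% and 3.6%. Members with and without a match had like median log2 fold changes, at 0.74 and 0.70 for NRF1 and 0.71 and 0.70 for ETS. Shown here are the promoters of Uqcr11, which had the largest rise, Ndufaf1, called in every alternative setting, and Cox6a1, a ubiquitous complex IV subunit with overlapping NRF1 matches. Each runs 5′ to 3′ on the gene strand and stops before the GENCODE gene begins, at chr10:80406831-80407071 (minus), chr2:119662835-119663084 (minus) and chr5:115348982-115349208 (minus). Capitals mark the ETS letters in Uqcr11 and Ndufaf1 and the NRF1 letters in Cox6a1.
Uqcr11: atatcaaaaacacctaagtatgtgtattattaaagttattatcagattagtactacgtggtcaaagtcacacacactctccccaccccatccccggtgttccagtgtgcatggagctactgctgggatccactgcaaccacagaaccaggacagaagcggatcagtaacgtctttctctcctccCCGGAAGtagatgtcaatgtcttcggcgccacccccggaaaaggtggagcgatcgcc
Ndufaf1: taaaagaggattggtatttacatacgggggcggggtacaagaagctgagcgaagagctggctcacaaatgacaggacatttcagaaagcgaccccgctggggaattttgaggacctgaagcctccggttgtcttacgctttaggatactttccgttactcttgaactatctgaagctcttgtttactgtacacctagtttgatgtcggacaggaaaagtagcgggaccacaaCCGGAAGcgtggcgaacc
Cox6a1: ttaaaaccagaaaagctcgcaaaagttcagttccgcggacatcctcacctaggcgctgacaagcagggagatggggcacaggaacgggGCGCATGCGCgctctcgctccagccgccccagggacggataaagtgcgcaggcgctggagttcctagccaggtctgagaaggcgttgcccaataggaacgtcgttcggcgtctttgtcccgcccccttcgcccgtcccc

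The mitochondrially encoded genes fell into 2 sets by level. Per kilobase of gene, mt-Cytb, mt-Co1, mt-Nd1, mt-Nd4, mt-Nd2 and mt-Nd5 had means of 459863, 384666, 216632, 155583, 138699 and 62755 normalised counts, whereas mt-Co2, mt-Nd6, mt-Co3 and mt-Atp6 had 787, 772, 397 and 326. Of this second set, mt-Nd6 alone had no nearly identical copy in the nuclear genome. A block of chromosome 1 (24611535 to 24616197) holds unprocessed pseudogenes, which are relics of mitochondrial DNA. Along 99.6% to 99.9% of their length, mt-Co2, mt-Atp6 and mt-Co3 had 0 differing bases from Gm28661, Gm10925 and Gm28437 in that block. The excluded mt-Nd3 and mt-Nd4l matched copies over 98.3% and 99% of their length in the same way. Reads that fit both places cannot be assigned, and the treatment of such reads was not given in the sources used here, so levels and changes of mt-Co2, mt-Atp6 and mt-Co3 are uncertain. The copies had more counts than the genes themselves, as Gm28661 with 553 and 576 in Control and 981, 1032 and 1514 in Prox1 OE. mt-Nd4 was identical to its copy over 63.6% of its length and mt-Co1 nearly so over 31.3%, while mt-Nd1, mt-Nd2, mt-Nd5 and mt-Cytb had no copy of at least 99% identity. Reads from the shared parts of mt-Nd4 and mt-Co1 meet the same difficulty, so their levels per kilobase are also uncertain.

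Short stretches show how close the copies are. Sequences are from GENCODE M21 transcripts (GRCm38), 5′ to 3′, and a capital marks a base that differs between gene and copy. The first pair covers bases 1063 to 1122 of mt-Co1 and 10 to 69 of Gm29216, whose single difference over 483 aligned bases is A1066T, counted from the first base of mt-Co1. The second pair covers bases 31 to 90 of mt-Atp6 and of Gm10925, which are the same throughout.
mt-Co1: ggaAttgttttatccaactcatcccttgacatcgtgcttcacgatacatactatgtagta
Gm29216: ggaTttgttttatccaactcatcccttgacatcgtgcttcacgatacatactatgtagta
mt-Atp6: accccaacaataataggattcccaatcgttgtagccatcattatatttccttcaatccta
Gm10925: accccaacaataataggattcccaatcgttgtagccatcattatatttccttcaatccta

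Among complex I genes in mitochondrial DNA, mt-Nd1 (a membrane-arm core subunit near the quinone site) had 132124 and 116466 normalised counts in Control and 287096, 199969 and 300931 in Prox1 OE. All Prox1 OE values were above Control, with replicate 2 the lowest (1.06, SE 0.28, limma adjusted p = 0.0245). mt-Nd4, a proton-pumping subunit, had 131161 and 130916 against 264537, 224029 and 321326 (1.03, SE 0.26, limma adjusted p = 0.0223). mt-Nd2 had 94378 and 89069 against 220612, 119028 and 196761, and just missed the threshold (0.91, SE 0.30, limma adjusted p = 0.0524), while edgeR and DESeq2 called it (adjusted p = 0.0318 and 0.00092). These 3 genes, all pumping or quinone-proximal subunits, had groups that did not overlap. mt-Nd5, also a pumping subunit, had 99141 and 97836 against 185633, 71423 and 118297. Replicate 2 fell below both Control libraries and replicate 1 lay highest, so the groups overlapped (0.24, SE 0.38, limma adjusted p = 0.655), and the sign turned without replicate 1 (-0.10). mt-Nd6, the gene encoded on the opposite strand and overlapping mt-Nd5, had 254 and 397 against 395, 413 and 545 and was not called (0.49, limma adjusted p = 0.155).

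For complexes III and IV, mt-Cytb, the cytochrome b that binds ubiquinol, had 360386 and 355105 normalised counts against 682560, 492325 and 740040. Its groups did not overlap, and it was not called by limma (0.81, SE 0.36, limma adjusted p = 0.115), while edgeR and DESeq2 on the recovered reads called it (adjusted p = 0.031 and 0.00025). mt-Co1, the catalytic subunit of complex IV, had 456243 and 475652 against 847462, 444623 and 747564, with replicate 2 under both Control libraries (0.49, SE 0.41, limma adjusted p = 0.388). The 3 genes with full copies on chromosome 1 were each called higher, mt-Co2 at 0.97, mt-Atp6 (the proton-channel subunit a of ATP synthase) at 0.78 and mt-Co3 at 0.77. Leaving those aside, limma called 2 of 7 mitochondrially encoded members higher (28.6%, beside 17.1% of all genes). These were mt-Nd1 and mt-Nd4, the latter identical to a chromosome 1 copy over 63.6% of its length. edgeR and DESeq2 each called 4 of the 7 higher, mt-Nd1, mt-Nd2, mt-Nd4 and mt-Cytb, beside 18% and 19.3% of all genes.

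**Figure D3:**
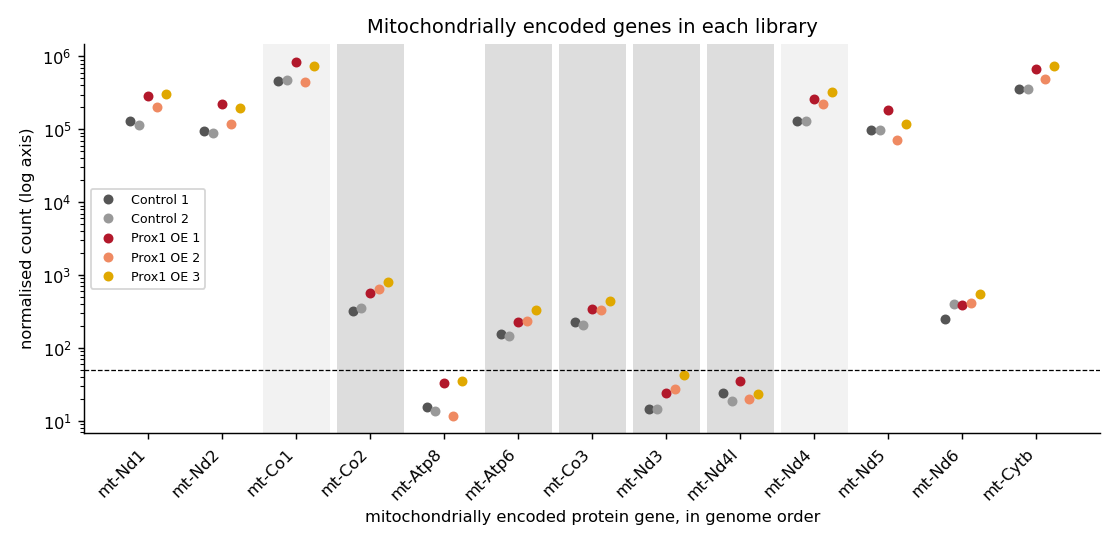
Normalised counts (y axis, log scale) of the mitochondrially encoded protein genes in genome order (x axis), 1 point a library. Darker bands mark genes with an identical copy on chromosome 1 over at least 98.3% of their length, lighter bands a part copy, and the dashed line is the minimum mean of 50. Genes in the darker bands lie far below mt-Nd1 and mt-Co1, as do mt-Atp8 and mt-Nd6, and for mt-Nd5 and mt-Co1 Prox1 OE replicate 2 lies under both Control libraries.

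Ratios within a library showed unequal change among the mitochondrial transcripts. mt-Nd5 counts were 0.750 and 0.840 times those of mt-Nd1 in Control and 0.647, 0.357 and 0.393 times in Prox1 OE. The ratio of mt-Co1 to mt-Nd1 was 3.45 and 4.08 in Control and 2.95, 2.22 and 2.48 in Prox1 OE. The ratio of mt-Cytb to mt-Nd1 was 2.73 and 3.05 in Control and 2.38, 2.46 and 2.46 in Prox1 OE. These 3 ratios were lower in each Prox1 OE library than in Control, the first 2 lowest in replicate 2 and the last in replicate 1. The ratio of mt-Nd2 to mt-Nd1 was 0.714 and 0.765 in Control and 0.768, 0.595 and 0.654 in Prox1 OE, and that of mt-Nd4 to mt-Nd1 was 0.993 and 1.12 against 0.921, 1.12 and 1.07, both with overlapping groups. mt-Nd1 had the highest fold change of the mitochondrially encoded members, so ratios to it tend to be lower in Prox1 OE by that choice. The mitochondrial ribosomal RNA mt-Rnr1 had 7955 and 10602 normalised counts in Control and 6478, 16510 and 25548 in Prox1 OE, with replicate 1 below both Control libraries and replicates 2 and 3 above them.

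Summed and median levels of nuclear and of mitochondrially encoded members gave the Prox1 OE libraries different orders. Nuclear members took 1.37% and 1.37% of all reads in Control and 1.45%, 1.72% and 1.76% in Prox1 OE replicates 1, 2 and 3. Mitochondrially encoded members took 2.94% and 2.76% in Control and 4.34%, 2.70% and 3.70% in Prox1 OE. The 95% Wilson intervals of these shares, which cover counting error only, were at most 0.0107 percentage points wide. Relative to the Control mean, the median nuclear member was 0.39, 0.73 and 0.94 higher on the log2 scale in replicates 1, 2 and 3, and the median mitochondrially encoded member 0.89, 0.54 and 1.08 higher. Replicate 1, with the most Prox1, thus had the smallest nuclear rise, and replicate 2 the smallest mitochondrial rise by this median. Single genes differed, since among Prox1 OE libraries mt-Co2, mt-Atp6 and mt-Nd6 were lowest in replicate 1 and highest in replicate 3, as the nuclear median was, and the ribosomal RNAs mt-Rnr1 and mt-Rnr2 were likewise lowest in replicate 1 and highest in replicate 3. The summed mitochondrial counts were 2.16 and 2.02 times the nuclear counts in Control and 2.98, 1.57 and 2.10 times in Prox1 OE, and the Prox1 OE ratios lay on both sides of Control.

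Transcript length moved with these library differences. Most nuclear members are short, and short genes as a whole were higher in Prox1 OE. Over all genes tested with a transcript of up to 1000 bp, medians relative to Control were 0.06, 0.44 and 0.46 in replicates 1, 2 and 3, and over those longer than 5000 bp they were -0.21, -0.42 and -0.40. The 51 nuclear members of up to 1000 bp stood at 0.35, 0.78 and 0.96, above all short genes in each library. Members of 2000 to 5000 bp stood at 0.45, 0.46 and 0.67, where all genes of that length were at -0.01, -0.06 and -0.07. Across the 93 nuclear members, log length and the log2 ratio of replicate 1 to the mean of replicates 2 and 3 had a Pearson's r of 0.46 and a Spearman's rho of 0.56, given as a description because genes of the same libraries are not independent. After a loess correction for length in each library, 31 nuclear members were called higher and 3 lower (Ndufa4l2, Cox4i2 and Cox7a1), where 16.2% and 16% of all genes were called higher and lower. The nuclear median was then 0.30 against -0.05 for all genes, and 2 mitochondrially encoded members were called. What made length matter was not tested.

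**Figure D4:**
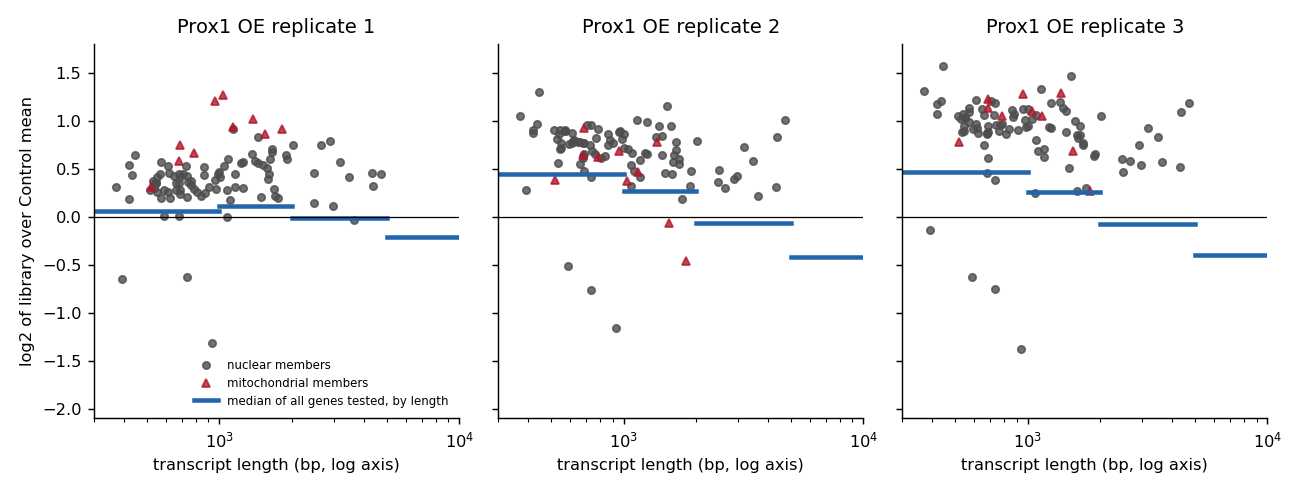
Log2 of each Prox1 OE library over the Control mean (y axis) against transcript length in bp (x axis, log scale), 1 panel a library. Circles are nuclear and triangles mitochondrially encoded members, and blue lines are medians of all genes tested in a length band. Most members lie above the blue lines in all 3 panels, and in replicate 1 the short members lie closest to 0, at a median of 0.35.

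Other genes of oxidative metabolism were read against the 17.1% of all genes called higher and the median of -0.02 over all genes. Neither these lists nor those of the next paragraphs were matched or corrected for transcript length. All genes tested of up to 1000 bp had a median of 0.29, with 425 of 1941 called higher. Those of 1000 to 2000 bp had a median of 0.21 and those over 5000 bp -0.35, so distances from the overall median are uncertain. Carriers and dehydrogenases that feed the chain or act within it rose in 6 of 8 cases. They were led by Sqor (sulphide quinone oxidoreductase, 1.28), Etfb (an electron transfer flavoprotein subunit, 1.28), Cyc1 (cytochrome c1 of complex III, 0.87) and Cycs (cytochrome c, 0.66). Cyc1 had 7281 and 7937 normalised counts against 12472, 13308 and 16140, in the range of the complex III members. In the citric acid cycle, 10 of 13 genes rose with a median of 0.56, among them Fh1 (fumarase, 0.94) and Suclg1 (succinate-CoA ligase, 0.82). Assembly factors outside the symbol rule rose in 14 of 33 cases, with Sco2, a copper chaperone of complex IV, at 1.59 and Coa6 at 1.09.

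Mitochondrial ribosomal protein genes, whose products translate the mitochondrially encoded subunits, rose in 40 of 77 cases with a median of 0.45, led by Mrpl12 at 0.96. Of 12 genes for copying and transcribing mitochondrial DNA, Lonp1 alone was called (0.66), beside 17.1% of all genes called higher. All 12 fold changes were above 0, with a median of 0.34, and 10 genes had all Prox1 OE values above Control, against 30.9% of all genes. Tfam, the packaging and transcription factor of mitochondrial DNA, had 2013 and 2127 normalised counts against 2554, 2417 and 2786 (0.32, limma adjusted p = 0.069). In mitochondrial RNA processing, 5 of 13 genes rose, including Hsd17b10 (0.67) and Lrpprc (0.65), which stabilises mitochondrial messenger RNA. Of 12 pore, import and chaperone genes, 3 rose (Phb, Hspd1 and Phb2) and 9 were not called, a share of 25% beside 17.1% of all genes called higher. The cytosolic ribosome list had a median of 0.05, and its 3 called genes of 92, Rps6kl1, Rps6kb2 and Rps6ka3, encode S6 kinases that its symbol rule takes in, not ribosomal proteins.

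Of 9 known nuclear regulators of respiratory genes, 1 was called higher and 3 lower, beside 17.1% and 16.2% of all genes, with a median of -0.25. Ppargc1b, a coactivator, rose from 23.0 and 17.0 to 63.4, 31.9 and 72.9 normalised counts (1.38, limma adjusted p = 0.045). Nrf1, whose letters were searched above, had 1189 and 1192 in Control against 915, 800 and 964, with the groups apart (-0.42, limma adjusted p = 0.0464). Gabpb1, a subunit of the ETS factor GABP, and Pprc1, a coactivator, fell by 0.58 and 0.47 on the log2 scale. Ppargc1a, the best known coactivator of mitochondrial genes, had 377 and 366 against 350, 444 and 488 and was not called (0.19, limma adjusted p = 0.467).

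**Figure D5:**
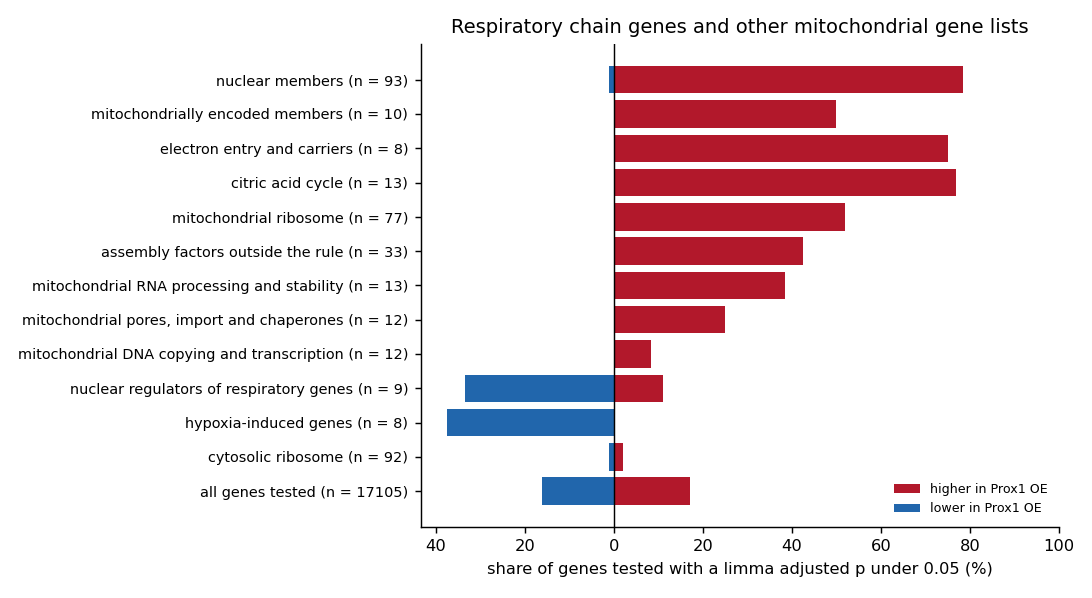
Share of the tested genes called higher (red, to the right) or lower (blue, to the left) in Prox1 OE by limma (x axis, %), for the members, all genes tested and the 10 lists of mitochondrial, hypoxia-induced and ribosomal genes and their regulators, with the number tested beside each name. Cell type and proliferation markers are not drawn. Among the groups drawn, nuclear members, electron carriers and the citric acid cycle have the longest red bars and regulators and hypoxia-induced genes the longest blue bars, while all genes tested stand at 17.1% and 16.2%.

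Cell type markers were read against the 17.1% of all genes called higher and 16.2% called lower. All 8 hepatocyte markers rose, with a median of 1.75. Of 6 cholangiocyte markers, 5 fell, and their summed level was 751175 to 820129 in Control and 521387 to 703976 in Prox1 OE, largely Spp1. Proliferation markers fell in 5 of 6 cases (33409 to 48640 against 19411 to 25766 summed), and stellate and fibroblast markers fell in 3 and rose in 1 of 6 (88558 to 90663 against 45814 to 56552). Macrophage markers rose in 2 of 6 cases (8552 to 9705 against 13461 to 19750), endothelial markers in 2 of 5 (5466 to 7315 against 7794 to 11777), and lymphocyte markers in 2 of 4 tested (86.5 to 100.2 against 172 to 255). Red blood cell markers were called in 1 of 5 cases, a share near that of all genes (4937 to 7492 against 8407 to 17912). Of 5 striated muscle markers, 2 reached the test and were not called. Ckm had 111 normalised counts in Control replicate 1, 2.54 in Control replicate 2 and 1.16 to 4.09 in Prox1 OE, and Acta1 had 12.3 to 43.2 over all libraries. Myh1, Myh6 and Tnnt3 were under the minimum mean of 10, and the summed list ran from 45.8 to 136 in Control and from 17.4 to 45.1 in Prox1 OE. The part of these cell types in the respiratory chain result was not tested.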

How the data were processed

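RNA-seq libraries were made from 5 tumours (2 Control, 3 Prox1 OE, grouped by the labels) with a dUTP protocol, and the authors mapped reads to mm10 with STAR. The counting tool, its strand setting, its annotation and its treatment of reads shared between copies are not given in the sources used here. The deposited table holds a signal, normalised counts, which the authors obtained by dividing reads by DESeq2 size factors, 1 column per library. All values were whole multiples of 1 read (0.822 to 1.18 normalised counts, tolerance 0.01, 100% of values), which gave the library totals. The authors' own comparison table (fold changes and p-values) was not used.

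Genes with a mean of at least 10 were tested with limma 3.58.1 (R 4.3.3, trended eBayes, two-sided, no covariate) on log2(normalised count + 1), which understates changes of low genes, with Benjamini-Hochberg adjustment over 17105 genes and a threshold of 0.05. edgeR 4.0.16 on the recovered reads, as an alternative, called 5761 genes and limma 5702. Further alternatives were DESeq2 1.42.0, other scalings, pseudocounts (0.1 and 10) and filters, limma without the trend, the replicate block, each library left out and a loess correction for transcript length; a loess correction for GC content was chosen after seeing the data. The GC correction called 67 nuclear and 6 mitochondrially encoded members higher, beside 16.5% of all genes. The limma procedure was also run on simulated counts with known changes, and the outcome is not reported here. Gene types, coordinates and lengths came from GENCODE M21 (GRCm38), which matched 55137 of 55397 identifiers, and promoters from RefSeq. Members and lists were chosen with earlier results of these data known. Genes were named by rule: Prox1, mitochondrially encoded members, core subunits, alternative forms, the 10 largest called changes in each direction, members against their complex's direction, and up to 4 called genes of each other list. Other genes were named after their values were seen, and some genes that the rule names are not reported here.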

Additional observations from a re-analysis of the deposited data

How the results depend on the processing

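The direction of the members as a class was kept under every alternative tried, while the number called was not. In the main setting 79 members were called. Members called in other settings, whether or not among those 79, numbered 17 under total-read scaling, 19 under total-read scaling without mitochondrially encoded genes, 52 with no filter on low values, 31 by limma without the trend and 36 after the length correction (15, 17, 52, 30 and 33 of them among the 79), where 48.6%, 47.8%, 16.4%, 24.7% and 32.2% of all genes were called. Nuclear members called higher numbered 73, and 11, 13, 47, 25 and 31 in the same settings. Mitochondrially encoded members called higher numbered 5, and 3 under both total-read scalings and 2 after the length correction. Leaving out each library in turn gave 3 to 91 members, 2 to 84 nuclear and 0 to 5 mitochondrially encoded members called higher, 1511 to 7494 genes in all and 19 to 177 genes of the other lists. The 0 came without Control replicate 1, in limma, where the lone Control library is assumed to vary like the Prox1 OE libraries and 4 had an unadjusted p under 0.05, and no other tool was run on it. The other lists had 118 called genes, and 66 without the trend. Log2 ratios of summed levels were 0.73 (mitochondrially encoded) and 0.70 (nuclear), and 0.30 and 0.26 under total-read scaling, or 0.31 and 0.28 without mitochondrially encoded genes in the total. The cause of these shifts was not tested, although settings with fewer libraries also hold less information.

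Among the genes of the naming rule, fold changes turned sign for 4, none of them called in the main setting: mt-Nd5 (-0.19 and -0.18 under the total-read scalings, and -0.10 to 0.59 with a library left out, the lowest without Prox1 OE replicate 1), Cox7a2l (-0.24 and -0.23, and -0.17 after the length correction), Atp5g2 (-0.10 and -0.088, and -0.10 after the length correction) and Cox7a1 (-0.39 to 0.071 with a library left out, the highest without Prox1 OE replicate 1). Of the members named outside the rule, Ndufaf4, not called, stood at -0.18 under total-read scaling. The median of all genes stood at -0.45 and -0.44 under the total-read scalings, so that small positive fold changes turn sign there by construction, and all 4 of mt-Nd5, Cox7a2l, Atp5g2 and Ndufaf4 stayed above it. Replicate numbers are shared between groups, but no label ties same-numbered libraries together, and their deviations from the group means correlated at 0.14 and 0.02. With the replicate number as a block, 71 members were called (66 nuclear members higher, 4 mitochondrially encoded members higher), of 5262 genes in all, and 97 of the other lists. With 2 Control libraries, the spread within that group rests on a single difference.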
